A study of Mus musculus with 2 samples.

Results

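The 10 genes described here are the cyclins of the G1 and G2 phases, the kinases that they activate and the inhibitor p27: Ccnd1, Ccnd2, Ccnd3, Cdk4, Cdk6, Ccnb1, Ccnb2, Cdk1, Cdk2 and Cdkn1b. They were chosen by name, and all 10 were found among the 11264 genes of the deposited table, each as a single row, and all 10 reached a mean of at least 1 FPKM. Primary smooth muscle cells (VSMCs) of the mouse aorta were infected for 36 hours with an adenovirus that encodes Klf5 (Ad-Klf5) or with the GFP control adenovirus (Ad-Ctl). The labels name 1 RNA library per condition. They give the strain as C57BL/7 for Ad-Klf5 and as C57BL/6 for Ad-Ctl, so strain and infection cannot be told apart if that entry is right. The field for the treatment speaks of cells and of a virus that are not those of the titles. The 36 hours are taken from the study's description. The promoter that drives the cDNA is not given in the sources used here.

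Cell division is driven by cyclin-dependent kinases, which are inactive until a cyclin binds them. D-type cyclins accumulate in response to growth factors, bind Cdk4 and Cdk6 and begin the phosphorylation of the retinoblastoma protein in G1, Cdk2 acts with cyclins E and A at the entry into and passage through S phase, and Cdk1 with the B-type cyclins drives mitosis. p27, encoded by Cdkn1b, binds the cyclin-Cdk complexes and holds cells in G1. In the vessel wall, smooth muscle cells are mostly quiescent and re-enter the cycle after injury or in culture.

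Values are FPKM, fragments scaled to transcript length and library size, a unit that can be set side by side between genes. A difference is given as the log2 ratio of FPKM + 1 in Ad-Klf5 over Ad-Ctl, so for a gene near 1 FPKM the printed change is smaller than that of the FPKM alone. The words higher and lower are kept for genes that differ by 2-fold or more on that scale, with no test. The labels name a single library per condition, so the named libraries have no replicate check. P-values were recomputed only to settle which deposited group is which condition, as described below, and not to judge a gene. In a mixed culture, fewer cells of a type and less RNA per cell cannot be told apart. The FPKM summed to 300045 in Ad-Klf5 and 278962 in Ad-Ctl, and without read counts the depth behind each value is unknown. Klf5 itself was at 2.62 FPKM in Ad-Klf5 and at 1.76 FPKM in Ad-Ctl, a log2 ratio of 0.39. This lies below the 90th percentile of all genes tested (0.42), and the difference of the authors' group means for Klf5, explained below, was 0.11. Those means include the named libraries, so the 0.11 does not show a rise of Klf5 in the rest of the groups. Of the 7 smooth muscle markers tested none was at 2-fold, with 4 log2 ratios above 0 and 3 below, from -0.58 for Lmod1 to 0.44 for Tagln. Acta2 was at 200.7 FPKM in Ad-Klf5 and 228.7 FPKM in Ad-Ctl, and Cnn1 was under 1 FPKM in both libraries. Myh11, Myocd, Actg2 and Mylk were not among the genes of the table used here, so no level can be given for them. The 7 mesothelial markers measured of 10 summed to 137 FPKM in Ad-Klf5 and 31.8 FPKM in Ad-Ctl, with 4 of them higher and none listed at 0. Their part in the results below was not tested. Of the fibroblast markers 4 of 8 were measured and summed to 520 FPKM in Ad-Klf5 and 609 FPKM in Ad-Ctl, mostly Col1a1, with Ly6a higher (log2 ratio 2.49) and Pdgfra lower (-1.39). Of the macrophage markers 1 of 8 was measured (Cd68, at 0.938 FPKM in Ad-Klf5 and 0.229 FPKM in Ad-Ctl), and of the endothelial markers 0 of 8.

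Of the 10 genes, 1 was higher in Ad-Klf5 and 1 was lower, and both are D-type cyclins: cyclin D1 was higher and cyclin D3 was lower. The other 8 had log2 ratios between 0.06 and 0.64 and were under 2-fold. Among all 10158 genes that passed the same minimum, 99 (0.975%) were higher by this measure and 69 (0.679%) were lower, and 77 were higher and 107 lower once each library was brought to the mean of both sums. A count of 1 in each direction is not read as setting the 10 genes apart from this background. The median log2 ratio of the 10 genes was 0.27, where that of all genes tested was -0.017, with 5% of all genes below -0.60 and 5% above 0.56.

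**Figure D1:**
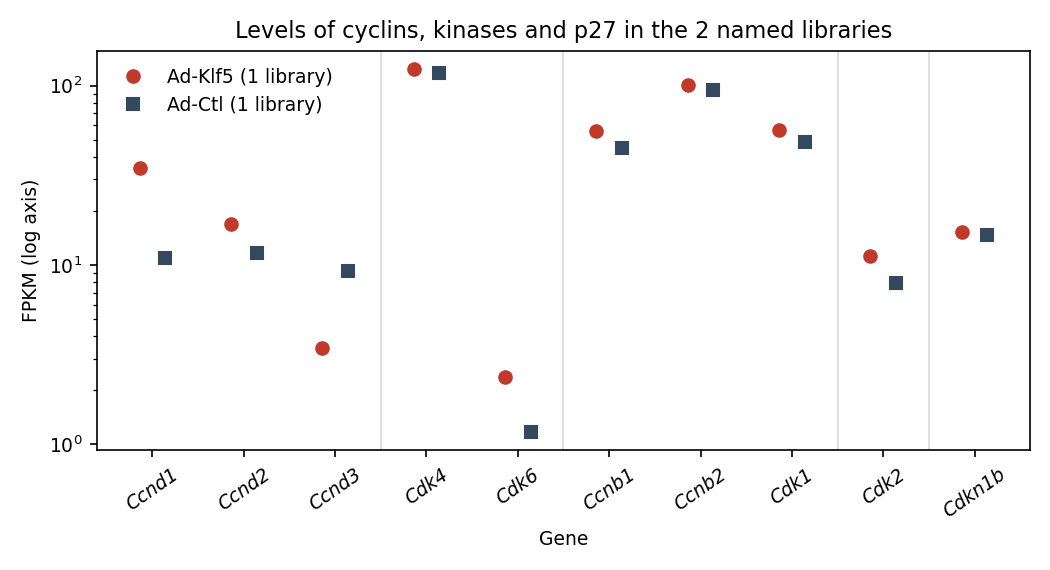
FPKM (log axis) of the 10 genes in the named Ad-Klf5 library (circles) and the named Ad-Ctl library (squares), 1 library each and therefore without error bars, with grey lines between the groups of genes. Ccnd1 lies at 34.7 FPKM in Ad-Klf5 against 10.9 FPKM in Ad-Ctl and Ccnd3 at 3.44 FPKM against 9.20 FPKM, while the symbols of Cdk4, Ccnb2 and Cdkn1b are almost level.

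The D-type cyclins are the sensors of growth factor signalling among the cyclins. Ccnd1 (cyclin D1, ENSMUSG00000070348.5, on GRCm38 from 144929931 to 144939925 of chromosome 7, minus strand) was at 34.7 FPKM in Ad-Klf5 and 10.9 FPKM in Ad-Ctl, a log2 ratio of 1.58. Of all genes tested, 0.256% had a ratio as high or higher. Ccnd2 (cyclin D2, ENSMUSG00000000184.12, minus strand of chromosome 6 from 127125162 to 127152193) was at 16.9 FPKM in Ad-Klf5 and 11.6 FPKM in Ad-Ctl, a log2 ratio of 0.50 that stays under 2-fold. Ccnd3 (cyclin D3, ENSMUSG00000034165.16, plus strand of chromosome 17 from 47505051 to 47599691) was at 3.44 FPKM in Ad-Klf5 and 9.20 FPKM in Ad-Ctl, a log2 ratio of -1.20. A ratio as low or lower was found for 0.335% of all genes tested. So within this family of 3 related proteins, one gene was higher, one was lower and one was under 2-fold.

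The make-up of the D-type cyclin mRNA differed between the named libraries as well as its sum. In Ad-Klf5, Ccnd1 made up 63.0% of the summed FPKM of the 3 genes, Ccnd2 30.7% and Ccnd3 6.26%. In Ad-Ctl the shares were close to equal, at 34.4% for Ccnd1, 36.6% for Ccnd2 and 29.0% for Ccnd3. The FPKM of Ccnd1 was 10.1 times that of Ccnd3 in Ad-Klf5 and 1.19 times in Ad-Ctl. The sum of the 3 genes was 55.0 FPKM in Ad-Klf5 and 31.8 FPKM in Ad-Ctl, a quotient of 1.73 without a pseudocount. With the named libraries taken out of the authors' group means, described below, this shift was not seen. On the log2 scale Ccnd1 was then at 4.33 in Ad-Klf5 and 4.48 in Ad-Ctl. Ccnd2 was at 4.58 in Ad-Klf5 and 4.68 in Ad-Ctl, and Ccnd3 at 3.29 in Ad-Klf5 and 3.47 in Ad-Ctl.

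**Figure D2:**
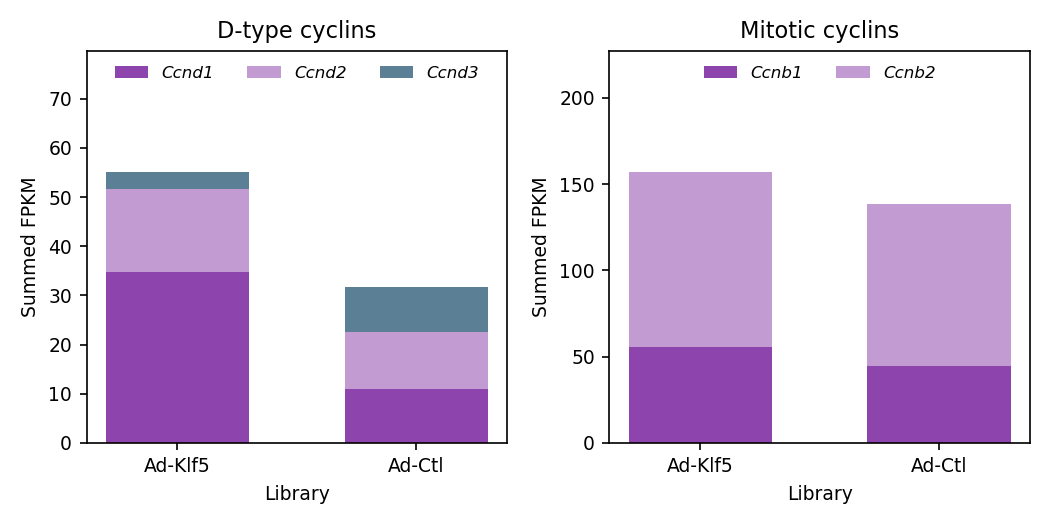
Summed FPKM of the D-type cyclins Ccnd1, Ccnd2 and Ccnd3 (left) and of the mitotic cyclins Ccnb1 and Ccnb2 (right) in the named Ad-Klf5 and Ad-Ctl libraries, 1 library per bar, both axes starting at 0. The D-type bar is 55.0 FPKM in Ad-Klf5, mostly Ccnd1, and 31.8 FPKM in Ad-Ctl in 3 parts of like size, whereas the mitotic bars of 157 FPKM in Ad-Klf5 and 139 FPKM in Ad-Ctl are divided alike.

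The kinases that D-type cyclins activate were both under 2-fold. Cdk4 (ENSMUSG00000006728.12, plus strand of chromosome 10 from 127063534 to 127067920) had the highest level of the 10 genes in both libraries, at 124 FPKM in Ad-Klf5 and 118 FPKM in Ad-Ctl (log2 ratio 0.07). Cdk6 (ENSMUSG00000040274.11, plus strand of chromosome 5 from 3341485 to 3531008), its close relative, had the lowest level in both, at 2.38 FPKM in Ad-Klf5 and 1.16 FPKM in Ad-Ctl. Its log2 ratio of 0.64 stands for a quotient of 2.04 of the FPKM themselves, since at this level the pseudocount takes up much of the difference. Cdk4 exceeded Cdk6 in FPKM by 52.2 times in Ad-Klf5 and by 102 times in Ad-Ctl. Cdk4 also exceeded the summed D-type cyclins in both libraries, by 2.25 times in Ad-Klf5 and by 3.73 times in Ad-Ctl.

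The mitotic cyclins and their kinase were all under 2-fold. Ccnb1 (cyclin B1, ENSMUSG00000041431.16, minus strand of chromosome 13 from 100778650 to 100786570) was at 55.8 FPKM in Ad-Klf5 and 44.7 FPKM in Ad-Ctl, a log2 ratio of 0.31. Ccnb2 (cyclin B2, ENSMUSG00000032218.7, minus strand of chromosome 9 from 70407692 to 70421547) was at 101 FPKM in Ad-Klf5 and 94.1 FPKM in Ad-Ctl, a log2 ratio of 0.10. Cdk1 (ENSMUSG00000019942.13, minus strand of chromosome 10 from 69335146 to 69352938), the kinase that both bind, was at 56.9 FPKM in Ad-Klf5 and 48.4 FPKM in Ad-Ctl, a log2 ratio of 0.23. These 3 genes were, after Cdk4, the most abundant of the 10 in both libraries and kept the order Ccnb2, Cdk1, Ccnb1. Ratios as high or higher were found for 16.4% of all genes tested in the case of Ccnb1, 36% for Ccnb2 and 23.0% for Cdk1.

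The promoters of Ccnb1, Ccnb2 and Cdk1 are shown because genes of the G2 phase and mitosis are known to share 2 short elements. These are CCAAT boxes, bound by the factor NF-Y, and the element CHR, bound by MuvB complexes. Of the CHR only the letters TTTGAA were searched, and other forms of it were not. Each window holds 250 bases before and 50 bases after a RefSeq start on GRCm38.p6, written 5′ to 3′ on the strand of the gene. Capitals mark CCAAT or its reverse complement ATTGG, and TTTGAA. No TTCAAA, its reverse complement, lies in these windows. The window of Ccnd3 at the start of the gene is given beside them, as one of a D-type cyclin without CCAAT or TTTGAA. A further window of Ccnd3 holds 1 CCAAT and is not printed.
Ccnb1, chr13:100786437-100786736, minus strand: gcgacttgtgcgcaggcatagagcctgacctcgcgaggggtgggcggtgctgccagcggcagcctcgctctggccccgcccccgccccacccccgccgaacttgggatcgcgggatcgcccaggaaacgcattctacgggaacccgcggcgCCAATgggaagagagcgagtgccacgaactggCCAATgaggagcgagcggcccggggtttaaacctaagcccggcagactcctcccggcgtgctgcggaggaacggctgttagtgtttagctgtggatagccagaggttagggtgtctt
Ccnb2, chr9:70421505-70421804, minus strand: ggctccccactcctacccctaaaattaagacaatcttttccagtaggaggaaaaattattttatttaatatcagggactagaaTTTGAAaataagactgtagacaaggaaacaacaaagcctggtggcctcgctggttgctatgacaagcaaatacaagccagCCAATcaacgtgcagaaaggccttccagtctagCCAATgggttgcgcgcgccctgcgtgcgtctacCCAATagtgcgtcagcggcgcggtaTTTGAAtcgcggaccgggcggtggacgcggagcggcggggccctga
Cdk1, chr10:69352863-69353162, minus strand: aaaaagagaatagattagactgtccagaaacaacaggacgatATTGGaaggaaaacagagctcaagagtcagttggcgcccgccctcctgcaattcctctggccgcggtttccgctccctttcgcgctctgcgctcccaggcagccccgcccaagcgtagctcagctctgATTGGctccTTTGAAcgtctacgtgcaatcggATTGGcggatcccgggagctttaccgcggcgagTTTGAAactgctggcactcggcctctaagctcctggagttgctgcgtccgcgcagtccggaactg
Ccnd3, chr17:47504801-47505100, plus strand: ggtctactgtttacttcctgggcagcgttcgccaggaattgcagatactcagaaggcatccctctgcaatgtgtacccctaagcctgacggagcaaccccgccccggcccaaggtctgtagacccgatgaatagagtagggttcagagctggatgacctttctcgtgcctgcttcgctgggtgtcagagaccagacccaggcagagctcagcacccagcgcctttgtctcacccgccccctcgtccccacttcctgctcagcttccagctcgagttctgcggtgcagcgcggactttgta

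The Ccnb2 window holds 3 CCAAT, beginning 87, 54 and 21 bases before the start, and 2 TTTGAA, of which one begins 4 bases after it. The Cdk1 window holds 3 CCAAT on the other strand and 2 TTTGAA, at 71 and 15 bases before the start. The Ccnb1 window holds 2 CCAAT, at 99 and 67 bases before the start, and no TTTGAA. This does not show that it lacks a CHR, since other forms were not searched. Over all 32851 windows of this length, 3.37% hold 3 or more CCAAT, 17.9% hold TTTGAA on either strand, and 179 (0.545%) hold both. Ccnd1 and Ccnd2 had no window, so Ccnd3 alone stands for the D-type cyclins here. Windows were at hand for 8 of the 10 genes, 9 windows in all, since Ccnd3 has a further start inside the gene that holds 1 CCAAT. Among the others, Cdkn1b holds 3 CCAAT, Cdk2 1, and Cdk4 and Cdk6 none. TTTGAA was found in no window but those of Ccnb2 and Cdk1.
The letters GGGCGG and CACCC, which Sp and Klf factors are known to bind, were searched on both strands as well. GGGCGG was found in 8 of the 9 windows, all but that of Cdk6, with 6 matches in the Cdk2 window, where 35.7% of all windows hold it. CACCC was found in 6 of the 9, with 4 matches in the Cdk4 window and none in those of Ccnb2, Cdk1 and Cdkn1b, where 57.5% of all windows hold it. Both Ccnd3 windows hold 2 GGGCGG and 3 CACCC. In the window printed above, a CACCC and a CCGCCC overlap, 21 bases before the start, as do a GGGTG and a GGGCGG in that of Ccnb1 and 2 CCGCCC in that of Cdk4. A match is a string of letters and no measured site.

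Cdk2 and p27 were also under 2-fold. Cdk2 (ENSMUSG00000025358.16, minus strand of chromosome 10 from 128697939 to 128705031), which acts with cyclins E and A, was at 11.2 FPKM in Ad-Klf5 and 7.97 FPKM in Ad-Ctl, a log2 ratio of 0.44. Cdk1 exceeded it by 5.08 times in Ad-Klf5 and by 6.07 times in Ad-Ctl. Cdkn1b (p27, ENSMUSG00000003031.14, plus strand of chromosome 6 from 134920401 to 134925513) was at 15.3 FPKM in Ad-Klf5 and 14.6 FPKM in Ad-Ctl, a log2 ratio of 0.06, the closest to 0 of the 10 genes. When each library was brought to the mean of the sums, the ratios of Cdk4, Ccnb2 and Cdkn1b fell on the other side of 0, at -0.036, -0.0016 and -0.038, where the median of all genes was -0.11, so no direction is given for these 3 genes.

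Set against each other, the sums of the D-type cyclins lay further apart in the named libraries than those of the mitotic cyclins or p27. Ccnb1 and Ccnb2 together were at 157 FPKM in Ad-Klf5 and 139 FPKM in Ad-Ctl, a quotient of 1.13, where that of the D-type cyclins was 1.73 and that of Cdkn1b 1.05. The mitotic cyclins exceeded the D-type cyclins in summed FPKM by 2.85 times in Ad-Klf5 and by 4.37 times in Ad-Ctl. Taken as D-type over mitotic, the log2 difference of Ad-Klf5 minus Ad-Ctl was 0.62 in the named libraries. It was 0.14 in the authors' group means described below, which include the named libraries. With the named libraries taken out, Ad-Klf5 minus Ad-Ctl was -0.15 for Ccnd1, -0.098 for Ccnd2 and -0.18 for Ccnd3. For Ccnb1 and Ccnb2 it was 0.11 each, so the direction of the 0.62 was reversed there. The D-type cyclins exceeded Cdkn1b by 3.60 times in Ad-Klf5 and by 2.18 times in Ad-Ctl, and the mitotic cyclins exceeded it by 10.3 times in Ad-Klf5 and by 9.51 times in Ad-Ctl. These quotients within a library do not depend on its scaling, and each rests on a single library. The order of the 10 genes by level was the same in both libraries for the 4 most abundant (Cdk4, Ccnb2, Cdk1 and Ccnb1) and for the least abundant (Cdk6), while Ccnd1 ranked 5 in Ad-Klf5 and 7 in Ad-Ctl. In Ad-Ctl, Ccnd1 and Ccnd2 were at nearly the same level, and in a single named library their order has no measure of error.

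The deposited table also gives, for each gene, the authors' mean of log2(FPKM + 1) in each of the groups they compared. By the arithmetic of the table these are means of 2 libraries, and the labels name only 1 library of each, so they include the named libraries and are not an independent check. For Ccnd1 the authors' group mean was 4.74 in Ad-Klf5 and 4.03 in Ad-Ctl, a difference of 0.72 and under 2-fold. For Ccnd3 it was 2.72 in Ad-Klf5 and 3.41 in Ad-Ctl, a difference of -0.69. None of the 10 genes had a group mean difference of 2-fold. The differences of the other 8 genes lay between -0.011 for Cdkn1b and 0.34 for Cdk6.
When the named library is taken out of its group mean, the rest for Ccnd1 is 4.33 in Ad-Klf5 and 4.48 in Ad-Ctl on the log2 scale. Both values lie between those of the named libraries, which are 5.16 in Ad-Klf5 and 3.58 in Ad-Ctl. For Ccnd3 the rest is 3.29 in Ad-Klf5 and 3.47 in Ad-Ctl, where the named libraries are at 2.15 in Ad-Klf5 and 3.35 in Ad-Ctl. The difference of the rest was thus -0.15 for Ccnd1, opposite in sign to that of the named libraries, and -0.18 for Ccnd3, in the same direction and far from 2-fold. Over the 10 genes it lay between -0.18 and 0.11, above 0 for 5 genes and below 0 for 5. The 2-fold differences of Ccnd1 and Ccnd3 so rest on the named pair of libraries.

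**Figure D3:**
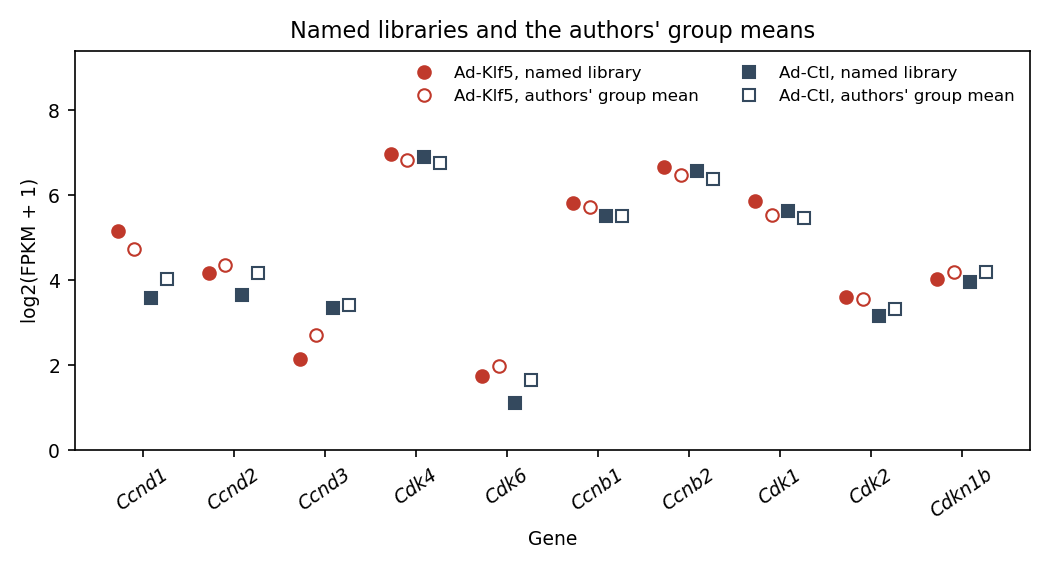
log2(FPKM + 1) of the 10 genes in the named libraries (filled symbols) and as the authors' group means (open symbols), for Ad-Klf5 (circles) and Ad-Ctl (squares), with no error bars since the table gives none. For Ccnd1 the named libraries are 1.58 apart and the group means 0.72, for Ccnd3 -1.20 and -0.69, while for Cdk4, Ccnb2, Cdk1 and Cdkn1b all 4 symbols lie close together.

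Of the 10 genes, 6 overlap another gene on the opposite strand in GENCODE vM21. The study's methods name a TruSeq RNA guide without saying whether strand was kept. Whether the counting used strand is not given in the sources used here. If strand was not kept or not used, reads of such a pair cannot be told apart. In the case of Ccnd3 this is Bysl, a ribosome biogenesis factor, at 19.9 FPKM in Ad-Klf5 and 13.0 FPKM in Ad-Ctl (log2 ratio 0.58, opposite in sign to that of Ccnd3). Ccnd1 overlaps Oraov1, at 1.88 FPKM in Ad-Klf5 and 2.79 FPKM in Ad-Ctl. Cdk4 overlaps Tspan31, at 117 FPKM in Ad-Klf5 and 108 FPKM in Ad-Ctl, and Cdk2 overlaps Pmel, at 1.16 FPKM in Ad-Klf5 and 1.01 FPKM in Ad-Ctl. Antisense genes that overlap Ccnd2 and Cdk6 were not among the genes of the table used here. Pseudogenes named for Ccnb1, Ccnb2 and Ccnd3 are annotated as well, and how reads shared with them were counted is not given in the sources used here.

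The other genes of the pathway, from 10 lists with 140 genes tested beside the 10, held 2 higher genes, or 1.43%, and no lower one, where 0.975% of all genes tested were higher and 0.679% lower. Of the 140, 79 (56.4%) had a ratio above 0, where 47.9% of all genes tested did, and their median log2 ratio was 0.064. Among 6 other cyclins of the cell cycle, Ccng1, the atypical cyclin G1, was higher, at 16.4 FPKM in Ad-Klf5 and 5.51 FPKM in Ad-Ctl (log2 ratio 1.42). The S phase cyclins were under 2-fold, with Ccna2 at 58.4 FPKM in Ad-Klf5 and 43.4 FPKM in Ad-Ctl (0.42), Ccne2 at 0.45 and Ccne1 at 0.20. Ccng2, the sister of cyclin G1, had a log2 ratio of -0.79.
Among the 7 other Cdk inhibitors, Cdkn1a, which encodes p21, the relative of p27 and a target of p53, was higher, at 40.6 FPKM in Ad-Klf5 and 10.9 FPKM in Ad-Ctl (log2 ratio 1.81). Cdkn1c, which encodes p57, the remaining gene of that family, was at 1.07 FPKM in Ad-Klf5 and 2.52 FPKM in Ad-Ctl (-0.76). The INK4 inhibitors, which bind Cdk4 and Cdk6 rather than the cyclin complexes, were under 2-fold. Of these, Cdkn2b had a log2 ratio of 0.59, Cdkn2c of 0.0010, Cdkn2d of -0.10 and Cdkn2a of -0.15. In the authors' group means the difference was 0.97 for Cdkn1a and 0.81 for Ccng1, both under 2-fold. These means include the named libraries, which were not taken out for these genes. They therefore do not show a difference in the rest of the groups.
The lists of genes expressed in the phases of the cycle held no gene at 2-fold. The 30 mitotic genes had a median log2 ratio of 0.14, with 21 above 0, and reached from -0.44 for Mki67, the proliferation antigen Ki-67, to 0.99 for Hmmr, a spindle protein. The 18 G1/S genes had a median of -0.082, with 8 above 0. The 19 genes of the anaphase-promoting complex and its partners, which mark the B-type cyclins for degradation, had a median of -0.011. The 12 genes tested of SCF and other ubiquitin ligases for D-type cyclins and p27 had a median of 0.098. Of 12 genes of the Rb and E2F families tested, 4 lay above 0 and 8 below, with a median of -0.065, and Tfdp2, a partner of E2F factors, had the lowest ratio at -0.96. The 7 genes tested of the MuvB core, B-Myb and FoxM1 had a median of 0.22, with Lin52 highest at 0.71, and Foxm1 was at -0.12. Of the 9 kinases, phosphatases and partners of Cdk1 and Cdk2, Cdk2ap1 had the highest ratio at 0.89 and Cks2, a small subunit of Cdk complexes, was at 0.57, with a median of 0.19. The 23 transcriptional and other cyclins and Cdks tested had a median of -0.012, with Ccnk highest at 0.72.

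**Figure D4:**
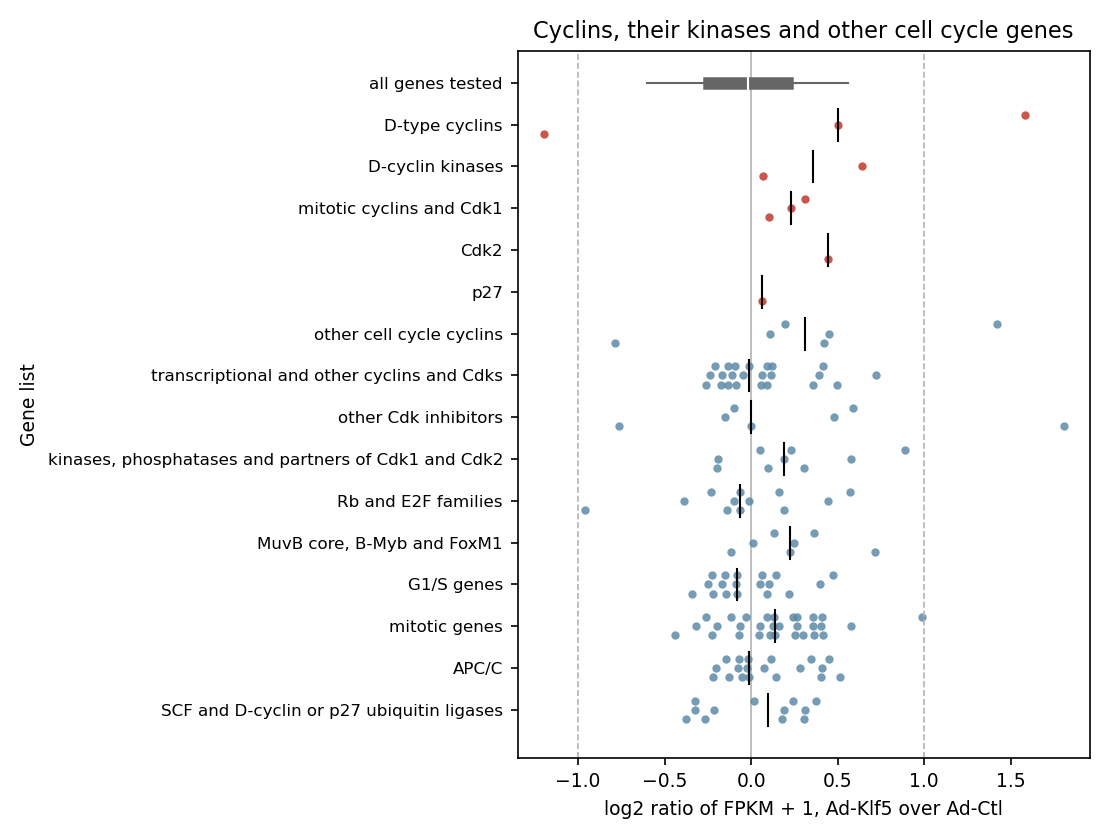
log2 ratio of FPKM + 1, Ad-Klf5 over Ad-Ctl, of each gene tested (points, spread vertically only to keep them apart), for the 10 genes described (red) and the other pathway lists (blue), with the median of each list as a black bar and, at the top, the median, the quartiles (thick bar) and the 5th to 95th percentile (thin line) of all 10158 genes tested. Dashed lines mark 2-fold. Past them lie Ccnd1, Ccng1 and Cdkn1a on the higher side and Ccnd3 alone on the lower side.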

How the data were processed

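The authors deposited FPKM values for the 2 libraries named in the labels, and beside them, per the file headers, a value for each of the groups 1 and 2 (a mean of log2(FPKM + 1), by its arithmetic). The authors' own comparison stands in the same table as p-values, q-values, a ratio and its log2. Tools listed in the submitters' processing notes, with no role given, are StringTie, STAR (2.5.2b), HISAT2 (2.0.5) and cutadapt, and the study's methods name HTSeq. The coordinates are those of GRCm38, and the loci of all 10 genes are those of GENCODE vM21. The processing notes name the build mm8 and the study's methods speak of the human genome, and neither matches these coordinates. The titles gave the condition of each library. The header does not say which condition is group 1. Taking it as Ad-Klf5, 2 libraries per group give the deposited p-value within 0.001 in 11271 of 11275 rows, against 1112 rows the other way. The deposited comparison was used only for this check and to find rows whose log2 fold change does not follow from the group means.

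Rows that share a symbol were summed, except for those rows (4, tolerance 1e-06, none of the genes described). The log2 ratio was taken with a pseudocount of 1 wherever the mean of both libraries was 1 FPKM or more, and genes were counted at 2-fold. No test was run. Genes named are the 10, Klf5, and of each pathway list those at 2-fold or up to 4 by size of the ratio. Named beyond that rule, after their values were seen, are Cdk inhibitors, cyclins and single genes shown for their role, marker genes and genes that overlap the 10. The genes and lists were chosen with earlier results of these data known. As alternatives, the pseudocount was 0.1 or 5, the minimum was dropped or raised to 5 FPKM, and the following were tried: scaling to the mean sum, centring on the median or on the mean trimmed by 30% at each end, only the most abundant row per symbol, and the authors' group means. Leaving out a replicate and CPM from counts were not run, for want of replicates and counts. Only the log2 ratio and the count at 2-fold were tried on simulated data, with large changes put in. The other steps were not simulated. Promoter sequences are those of RefSeq on GRCm38.p6. Python 3.11.15 was used with matplotlib 3.10.9, scipy 1.17.1, pandas 2.3.3 and numpy 2.4.6.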

Additional observations from a re-analysis of the deposited data

How the results depend on the processing

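Each of the 10 genes was recomputed under 9 alternatives, where the 89 values obtained (a mean of at least 5 FPKM leaves out Cdk6) kept their sign and their side of 2-fold in 82 cases. Ccnd1 was 2-fold higher with log2 ratios of up to 1.66, except in the authors' group means, at 0.72. Ccnd3 was lower down to -1.39, but under 2-fold with a pseudocount of 5 (-0.75) and in the authors' group means (-0.69), so that in the group means 0 of the 10 were higher, and in both of these settings 0 were lower. The sign turned with scaling to the mean sum for Cdk4 (-0.036), Ccnb2 (-0.0016) and Cdkn1b (-0.038), and in the authors' group means for Cdkn1b (-0.011). The 99 genes of the whole table at 2-fold higher became 159 with a pseudocount of 0.1, 33 with 5, 65 with the minimum raised to 5 FPKM and 16 in the authors' group means, and the 69 lower became 189, 19, 45 and 16 in these settings. With scaling to the mean sum, 77 were higher and 107 lower, so that the balance of the calls turned. Of the other pathway genes, 0 were 2-fold higher in the authors' group means, and 2 were lower with a pseudocount of 0.1 and 1 with scaling to the mean sum. The log2 difference of summed D-type over mitotic cyclins was 0.62 and came to 0.14 in the authors' group means, which include the named libraries. The other alternatives cannot move this ratio of sums within a library. The medians of the D-type and of the mitotic genes kept their direction and stayed under 2-fold in every alternative run. No paired analysis was possible because the labels give 1 library per condition. The depth behind low values such as those of Cdk6 is unknown. The cause of these shifts was not tested.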
